A study of Mus musculus with 2 samples.

Results

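Open chromatin far from annotated gene starts and with tall peaks was examined in the frontal cortex of young mice. The members were 652 regions of 31731 distal autosomal regions with peaks in both libraries, and of 53623 shared regions in all. They were selected on their heights: overlapping peaks of the 2 libraries were joined, regions on the 19 autosomes more than 1 kb from every start site in the GENCODE M21 annotation were kept, and the highest peak had to reach a height of 3 in each library. The heights are thus a description of the choice. Everything else taken from the same cuts (width, footprints, cut rates) is a description as well, whereas location, annotation and sequence played no part in the height criterion. A height of 3 was reached in both libraries by 2.05% of the distal regions, against 28.4% of the 20570 regions within 1 kb of a start site.

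DNase-seq records where the enzyme DNase I cuts the DNA of nuclei, and dense cuts mark DNA that is not wrapped around nucleosomes. The study holds 1 group of 2 libraries from frontal cortex of male B6CASTF1/J mice, an F1 hybrid of a laboratory and a wild-derived strain, at an age of 14 days. Each library was labelled as tissue of 3 males. The libraries have their own tissue samples but carry 1 donor number, so how far they differ may reflect technique rather than animals, and with no second condition no test was made and no p-value is given. The labels name no sorting of cells, so few cells with an open site and a weak opening in many cells cannot be told apart. Heights were set by the authors on a scale the sources used here do not state, and the read depth was not used here. As a check of the tissue label, 22 of 24 genes of excitatory neurons and cortical layers and 18 of 18 synaptic genes had a shared region within 1 kb of a start site, against 5 of 17 genes of liver, muscle and blood. Interneuron genes had 15 of 20, astrocyte genes 11 of 15 and housekeeping genes 12 of 12, whereas oligodendrocyte genes (8 of 18), microglia genes (6 of 13) and vascular genes (5 of 13) lay closer to the off-tissue list. The share over all protein-coding genes was not counted, so the check rests on the contrast between lists. Positions are 1-based in mouse assembly mm10, and values are given for replicate 1 and then replicate 2. A region called near a gene is named by the nearest protein-coding start site unless a distance is given, and that site can be far, up to 79341 bp (for Spata13) among those named.

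Distal open regions include enhancers, which raise transcription of genes at a distance, and insulators, where the zinc finger protein CTCF helps to fold chromatin into loops. Open promoters are often rich in CpG and carry sites for broadly expressed factors, whereas enhancers more often carry sites for factors of a cell type or a signal. Short stretches inside an open region with fewer cuts than their surroundings are called footprints and are taken as places where a protein may sit on the DNA.

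Sequences of 9 members show kinds of region found among the members and are printed on the plus strand, 5′ to 3′, as in the RefSeq sequence of GRCm38.p6 (mm10). Capitals mark the CTCF core consensus in the first pair, which lay 13013 bp upstream of Neurod2 (chr11:98342661-98342900, heights 4.18 and 4.28) and 26929 bp downstream of Apoe (chr7:19668941-19669180, heights 4.29 and 4.18). Both are members named for a gene list. The nearest coding start sites to them were those of Ppp1r1b and Clptm1.
Region upstream of Neurod2: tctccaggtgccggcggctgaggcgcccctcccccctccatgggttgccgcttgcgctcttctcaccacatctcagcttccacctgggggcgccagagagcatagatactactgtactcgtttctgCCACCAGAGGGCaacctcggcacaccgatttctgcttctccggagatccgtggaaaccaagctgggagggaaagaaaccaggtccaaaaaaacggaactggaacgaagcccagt
Region downstream of Apoe: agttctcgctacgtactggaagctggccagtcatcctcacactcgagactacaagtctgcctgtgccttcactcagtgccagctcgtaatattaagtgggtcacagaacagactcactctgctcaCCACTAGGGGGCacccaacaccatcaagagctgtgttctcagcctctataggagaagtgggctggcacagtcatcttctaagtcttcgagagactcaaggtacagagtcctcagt
In the next 5, capitals mark the bases under footprints of both libraries. The first 3 of them were the 3 tallest named members outside UTRs and without a CTCF core match: chr3:5860361-5860530 (heights 20.6 and 23.1), the middle 200 bases of the Trappc9 member (chr15:73067551-73067750, 14.6 and 15.1) and chr6:49236421-49236640 (14.5 and 15.3). The tallest member on an enhancer with forebrain activity, near Irf2bp2 (chr8:126666501-126666760, 13.2 and 13.2), and the middle 200 bases of the tallest member at an activity-induced gene, upstream of Fos (chr12:85455281-85455480, 8.37 and 8.73), were added after their values were seen.
Intergenic region of chromosome 3: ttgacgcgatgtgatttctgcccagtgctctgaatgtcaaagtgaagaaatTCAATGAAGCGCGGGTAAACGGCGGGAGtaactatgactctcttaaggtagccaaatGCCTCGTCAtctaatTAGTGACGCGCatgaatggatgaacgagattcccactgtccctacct
Region near Trappc9: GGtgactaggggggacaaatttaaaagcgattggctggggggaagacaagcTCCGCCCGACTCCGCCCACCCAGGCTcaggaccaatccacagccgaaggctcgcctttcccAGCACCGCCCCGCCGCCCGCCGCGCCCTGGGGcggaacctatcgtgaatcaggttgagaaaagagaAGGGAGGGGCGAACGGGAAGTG
Intergenic region of chromosome 6: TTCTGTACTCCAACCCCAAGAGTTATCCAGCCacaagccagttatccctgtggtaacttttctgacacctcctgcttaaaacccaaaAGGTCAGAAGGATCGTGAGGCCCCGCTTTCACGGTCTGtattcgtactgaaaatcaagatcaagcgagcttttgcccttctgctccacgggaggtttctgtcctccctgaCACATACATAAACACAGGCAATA
Region near Irf2bp2: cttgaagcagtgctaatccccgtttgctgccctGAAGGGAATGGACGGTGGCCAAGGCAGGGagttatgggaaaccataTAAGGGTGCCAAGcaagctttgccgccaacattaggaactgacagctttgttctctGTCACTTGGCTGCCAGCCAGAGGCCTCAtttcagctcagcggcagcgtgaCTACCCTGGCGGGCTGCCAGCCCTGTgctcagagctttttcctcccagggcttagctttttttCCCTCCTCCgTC
Region upstream of Fos: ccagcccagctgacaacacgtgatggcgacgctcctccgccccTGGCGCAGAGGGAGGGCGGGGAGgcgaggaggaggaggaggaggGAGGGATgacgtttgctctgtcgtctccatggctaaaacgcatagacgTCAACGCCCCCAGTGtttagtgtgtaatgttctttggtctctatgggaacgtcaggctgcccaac
The last pair, also added after the values were seen, shows in capitals the B box letters GGTTCGA (here on the minus strand) at the threonine tRNA gene n-TTagt9 (chr7:35234741-35234980, heights 9.68 and 8.47) and the start of an RFX X-box, GTTGCCATG, in a noncoding gene near Cstad (chr2:30658501-30658740, 13.3 and 11.2).
Region at tRNA gene n-TTagt9: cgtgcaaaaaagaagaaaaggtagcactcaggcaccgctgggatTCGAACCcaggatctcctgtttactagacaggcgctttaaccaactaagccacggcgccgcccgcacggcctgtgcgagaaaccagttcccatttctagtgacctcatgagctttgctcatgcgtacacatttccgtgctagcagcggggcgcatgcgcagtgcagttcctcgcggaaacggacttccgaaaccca
Region near Cstad: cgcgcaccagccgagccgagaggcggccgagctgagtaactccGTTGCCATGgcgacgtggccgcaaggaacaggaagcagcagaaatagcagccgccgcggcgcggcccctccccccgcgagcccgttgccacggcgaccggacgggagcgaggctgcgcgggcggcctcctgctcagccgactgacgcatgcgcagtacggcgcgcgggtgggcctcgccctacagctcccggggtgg
Every capital base of these 4 consensus matches also lay under a footprint in both libraries.

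Heights of the members ran from 3.01 to 26.3 in replicate 1 and from 3.0 to 30.2 in replicate 2, with a median of 4.18 in each. The other 31079 distal regions had medians of 0.908 and 0.834, and the 5846 regions near start sites that met the same minimum had 5.52 and 5.45. Most members sat low in their own range: 351 (53.8%) had a lower height under 4, 162 reached 5 in both libraries and 28 reached 10. The 2 libraries ranked them alike, with a median ratio of replicate 2 over replicate 1 of 1.01, 95% of ratios between 0.751 and 1.33, and no member more than 2-fold apart. Spearman's rho across the members, which share both libraries, was 0.808. The rule required a height of 3 in both libraries and so left out regions that were tall in 1 only. The ratios and rho thus describe the chosen regions and do not measure how well the libraries agree. The 3 members nearest the limit, near Cuedc1, Diaph1 and Amotl2, had a lower height of 3.003, and the 3 nearest regions outside it, near Cfap126, Nudcd3 and 1700001O22Rik, had 2.997.

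**Figure D1:**
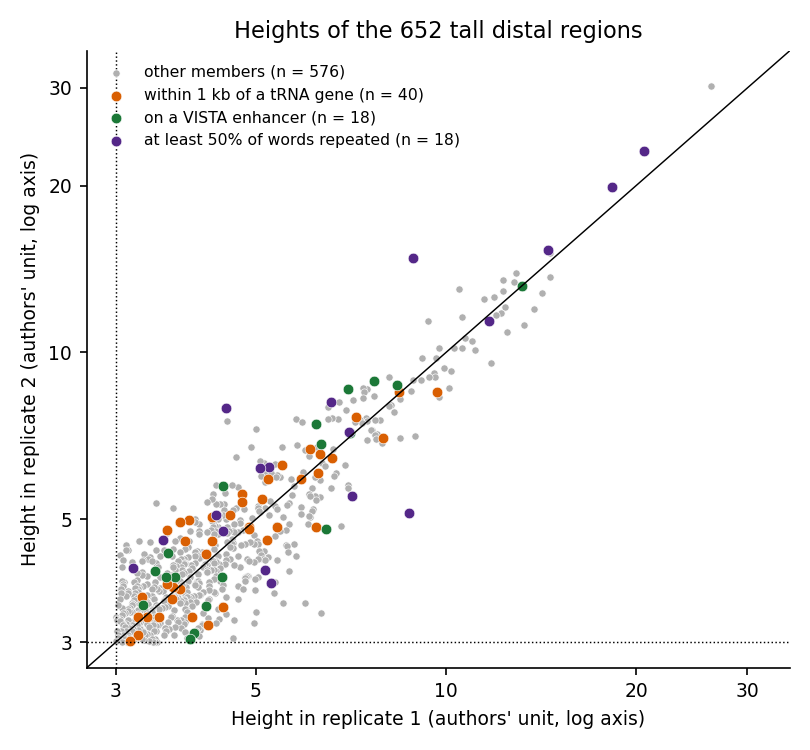
Height of each of the 652 members in replicate 1 (x axis) and replicate 2 (y axis), in the authors' unit on log axes, with the line of equality and dotted lines at the limit of 3. The 40 members near tRNA genes and those on VISTA enhancers lie along the line, and 3 of the 5 tallest belong to the 18 members made mostly of repeated sequence; 1 member on a VISTA enhancer is drawn with the tRNA genes.

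The tallest member lay in a UTR of Cers5, which encodes a ceramide synthase, 10043 bp from the nearest start site (chr15:99735661-99736060), with heights of 26.3 and 30.2 (mean 28.3 ± 2.74, SD, n = 2). It was a sequence with no repeated 31-base word in the assembly. The next 2 lay in an intergenic stretch of chromosome 3 (20.6 and 23.1) and in a UTR of Lars2, the gene of the mitochondrial leucyl-tRNA synthetase (chr9:123461881-123462160, 18.3 and 19.9), and the intergenic region of chromosome 6 near Igf2bp3 (14.5 and 15.3) was among the 5 tallest. In these 3, 100%, 62.8% and 70% of the 31-base words occurred elsewhere in the assembly, and single words had up to 15, 8 and 8 copies. How reads from such copies were placed is not given in the sources used here, so their heights may include cuts from other copies, which was not tested. The letters of these 3 look like pieces of the large-subunit ribosomal RNA, whose genes stand in long arrays of near-identical copies. They were not compared with a full-length gene of that RNA, and the copy numbers above count only what the assembly holds, so their heights and footprints may not describe these places in the genome.

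Repeated sequence was not typical of the members. In 570 (87.4%) every 31-base word was unique, against 93.3% of the other distal regions and 92.6% of the tall regions near start sites. At least 50% repeated words were found in 18 (2.76%), against 0.74% and 0.462%. By lower height this share of all distal regions was 1.55% under 0.5, 0.415% at 1 to 2, 1.43% at 3 to 5 and 5.22% at 5 to 10. The 18 held 4 of the 28 members that reached 10 in both libraries. They also held several of the members whose libraries differed most, such as a region in Filip1l (4.48 and 7.94), one near Gm21119 (8.86 and 14.8) and one at Gm11168 (8.73 and 5.13). Unique regions with as large a gap lay near Pcdhb1 (4.51 and 7.52) and in Zbtb16 (5.99 and 3.54), and one near Nfkb1 with 2.4% repeated words had 6.35 and 3.39.

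The remaining 6 of the 10 tallest had no repeated word. The region near Trappc9, a gene of a vesicle-tethering complex, lay 6257 bp from a start site (mean 14.8 ± 0.35, SD, n = 2). The noncoding gene B930059L03Rik held one at 14.6 and 13.7, and Cirbp, which encodes a cold-inducible RNA-binding protein, had one 5885 bp away at 12.9 and 13.9. An intron of Mxi1, the gene of an antagonist of Myc, held one at 14.2 and 12.8. The region 2701 bp from Tle2, a corepressor gene, stood at 12.8 and 13.4, and the intergenic one 72515 bp from Irf2bp2 at 13.2 in each library. RefSeq placed a start of Gm31936 737 bp from the Tle2 region and one of B930059L03Rik 187 bp from the region in that gene.

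Members lay outside genes more often than the other distal regions did. Intergenic positions held 349 (53.5%, exact 95% binomial interval 49.6 to 57.4) against 46.5%, and introns of protein-coding genes held 204 (31.3%) against 41.3%. Noncoding genes held 45 (6.9% against 6.83%), coding exons 34 (5.21% against 3.76%) and UTRs 20 (3.07% against 1.59%). In all 258 members (39.6%) lay inside a protein-coding gene, against 46.6%. Neighbouring regions on a chromosome are not independent, and these intervals cover counting error only.

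Although all members were more than 1 kb from a start site, they lay nearer to one than other distal regions. The median distance was 6960.5 bp against 13697 bp, and to a protein-coding start site 10650 bp against 28487 bp. The share of distal regions that were tall was smaller at greater distance, with 4.12% at 1 to 2 kb, 2.19% at 5 to 20 kb and 0.835% beyond 50 kb, where 40 members lay. The members farthest from any GENCODE start site lay in a noncoding gene on chromosome 5 (282748 bp, heights 5.36 and 3.86), in an intron of the glutamate receptor gene Grik3 (195762 bp, 3.01 and 3.02) and in an intergenic stretch of chromosome 1 (169219 bp, 4.33 and 3.96). RefSeq placed a start 19365 bp from the first of them. The nearest shared region of any kind lay a median of 2870 bp away, against 10640 bp for other distal regions.

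**Figure D2:**
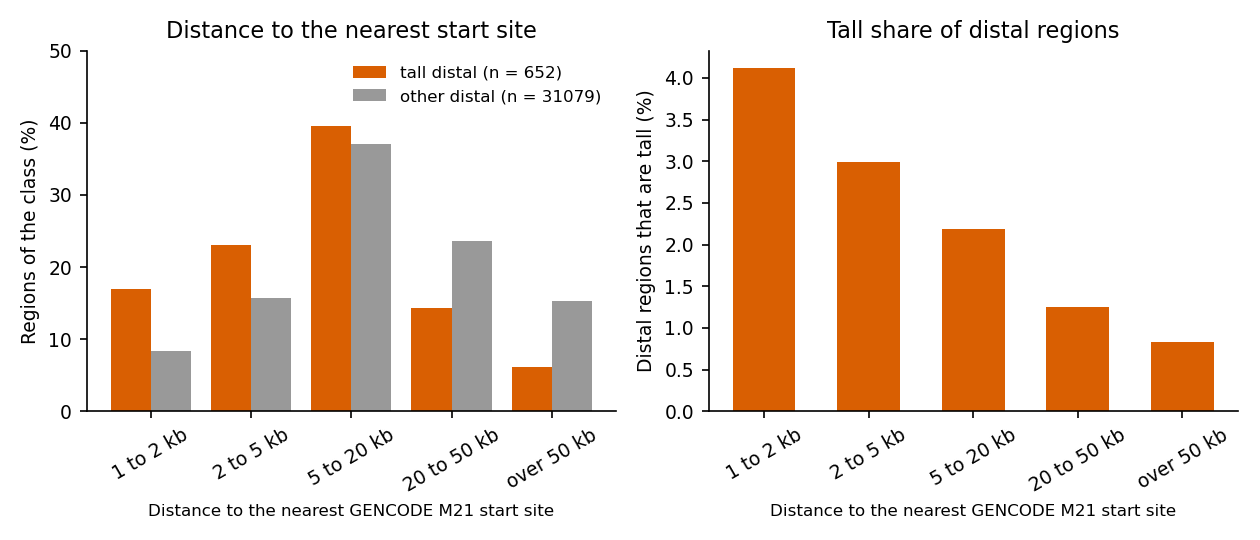
Left, share of the tall and of the other distal regions (percent of each class) by distance to the nearest GENCODE M21 start site; right, share of distal regions that are tall. Tall regions make up 4.12% of distal regions at 1 to 2 kb and 0.835% beyond 50 kb.

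Distance from GENCODE start sites did not mean distance from every annotated start. RefSeq, which was not used in the rule, placed a transcript start within 1 kb of 89 members (13.7%), against 4.71% of the other distal regions. Examples were Zfp869 (13.8 and 12), the potassium channel gene Kcnn1 (12.3 and 12.9), Angptl6 (11.9 and 12.6), Cpeb4 (11.1 and 10.1) and Sin3a (10.1 and 8.64). The share was 25.2% among members 1 to 2 kb from a GENCODE start site and 5.0% beyond 50 kb. It was also smaller at greater distance among the other distal regions, with 11.5% and 2.74% in the same bins. Among the 28 tallest, with both heights at least 10, it was 8 (28.6%).

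Genes of transfer RNA, which are read by RNA polymerase III from promoters inside the gene, made up a second group that the GENCODE start sites did not hold. Within 1 kb of a RefSeq tRNA gene lay 40 members (6.13%, exact 95% binomial interval 4.42 to 8.26), against 137 (0.441%) of the other distal regions and 45 (0.77%) of the tall regions near start sites. In 32 of the 40 the region covered the start of the tRNA gene itself. RefSeq lists 386 tRNA genes on the autosomes, of which 60 had a member within 1 kb and 233 any shared region. This set was looked at after the heights had been seen. Together, 116 members (17.8%) lay within 1 kb of a RefSeq start or tRNA gene, against 5.11% of the other distal regions. Another 520 members were near neither and were not made mostly of repeated words.

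Heights at tRNA genes ran from 3.16 to 9.68 in replicate 1 and from 3.02 to 8.47 in replicate 2. After n-TTagt9, the tallest lay at the histidine gene n-THgtg3 (chr2:122377381-122377620, 8.43 and 8.47), the arginine gene n-TRccg1 (chr11:107012621-107012920, 7.21 and 7.65) and the leucine gene n-TLcaa3 (chr11:58302461-58302740, 7.95 and 7.01). The last lay in a run of 3 members that all sat near tRNA genes. Chromosome 11 held 14 of the 40, and 34 lay outside every GENCODE gene. Members of this group held at most 25.2% of repeated words, and 11 of them held none. The B box letters of the internal promoter, GGTTCGA on either strand, occurred in the middle 200 bases of 20 members, 15 of them at tRNA genes, and in 0.438% of the other distal regions. Of the 19 matches inside a member, 16 lay under a footprint in both libraries.

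Enhancers tested in mouse embryos and recorded in RefSeq from the VISTA collection overlapped 19 members (2.91%, exact 95% binomial interval 1.76 to 4.51), against 199 (0.64%) of the other distal regions and 2 of the tall regions near start sites. Heights of the 19 ran from 3.31 to 13.2 in replicate 1 and from 3.04 to 13.2 in replicate 2. Of these, 7 had recorded forebrain activity, as had 68 of the 199 other distal regions on such enhancers. The 7 included those near Irf2bp2 (mm1295), near Bhlhe41, a gene of a circadian repressor (mm1548, 7.69 and 8.87), and near Tob1 (mm1496, 7.05 and 7.17). The lowest of the 7 lay near Spata13 (mm1122, 3.99 and 3.12). Hindbrain activity was recorded for 6. Heart activity was also recorded for 6, and 5 of these had none in brain or neural tube, including mm260 upstream of Fos (8.37 and 8.73) and mm567 near Fosb (6.45 and 4.81). The records describe embryos and say nothing of activity after birth.

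The members were richer in G, C and CpG than the other distal regions and poorer than tall regions near start sites. In the middle 200 bases their median GC content was 57.5%, against 51.5% in other distal regions and 64.5% in tall regions near start sites. The ratio of observed to expected CpG had medians of 0.523, 0.265 and 0.86. A CpG-island-like composition (GC of at least 50% and a ratio of at least 0.6) was found in 243 members (37.3%), against 5.35% and 87.7%. It was more frequent among taller members, with 29.8% at a lower height of 3 to 5, 58.2% at 5 to 10 and 67.9% of the 28 that reached 10. It was less frequent farther from start sites, with 45.9% at 1 to 2 kb and 17.5% beyond 50 kb.

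Matches to 20 consensus sequences of factor families were counted on both strands in the same 200 bases, whole matches only, and a match is a description and not a site. The CTCF core was found in 56 members (8.59%, exact 95% binomial interval 6.55 to 11), against 8.35% of other distal regions and 1.18% of tall regions near start sites. By lower height, its share of all distal regions was 3.65% under 0.5, 12.7% at 1 to 2, 10.4% at 3 to 5, 3.73% at 5 to 10 and 0 of 28 from 10 upward, where a count of 0 allows up to 10.7% if 3 counts are taken as the floor and up to 12.3% by the exact 95% binomial interval. The tallest member with a match lay near Stard10 (chr7:101310741-101311000, 7.73 and 7.56). The 56 had medians of 3.66 and 3.89, a GC content of 55.5% and 9 of CpG-island-like composition, against 4.25, 4.22, 57.5% and 234 in the 596 others.

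**Figure D3:**
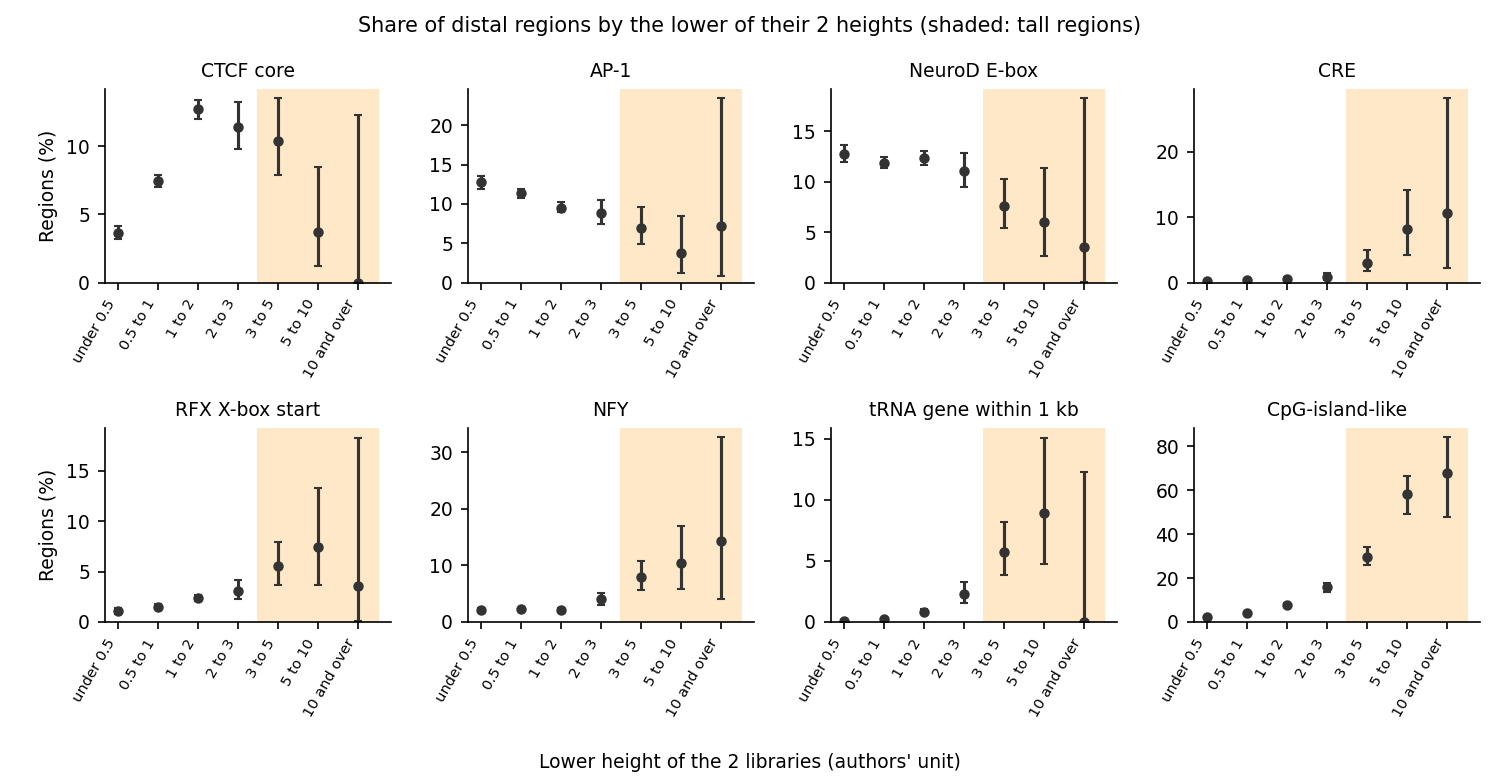
Percent of distal regions (y axes, from 0) that held a consensus match in their middle 200 bases, lay within 1 kb of a tRNA gene or had a CpG-island-like composition, by the lower of the 2 heights in the authors' unit (x axes). Points are shares with exact 95% binomial intervals; the shaded tiers are the members, and the CTCF core stands at 12.7% at 1 to 2 and 3.73% at 5 to 10, where CRE stands at 0.611% and 8.21%.

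Letters of signal and promoter factors were more frequent in members than in the other distal regions. CRE (TGACGTCA), bound by CREB and ATF proteins, was found in 4.45% against 0.447%, and NFY (CCAATCA), the CCAAT box, in 8.74% against 2.29%. The start of the RFX X-box (GTTGCCATG), bound by factors of ciliary genes among others, was found in 5.83% against 1.73%. In tall regions near start sites these shares were 5.18%, 15.6% and 1.23%, so that RFX letters were the one of the 3 more frequent in members than there. GC box (GGGGCGGGG) stood at 6.29% against 1.12%, ETS (CCGGAAGT) at 2.3% against 0.261%, NRF1 (CGCATGCGC) at 2.76% against 0.286% and EGR (GCGGGGGCG) at 2.15% against 0.241%, all below the 18.7%, 8.95%, 5.37% and 4.07% near start sites. GC box and EGR letters can overlap.

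Letters of factors linked to neuronal enhancers were less frequent. The NeuroD E-box (CAGATGG), bound by neuronal bHLH factors, was found in 7.06% of members against 12.2%, and AP-1 letters (TGANTCA) in 6.29% against 11%. The AP-1 letters allow any middle base and are wider than the site of Fos and Jun proteins, so other words were counted too. Near start sites they stood at 1.85% and 2.21%. Among regions of 55 to 60% GC alone (218 members, 6456 other distal regions), CRE was found in 4.13% against 0.666%, RFX letters in 6.42% against 1.69%, NFY in 7.34% against 2.25% and the NeuroD E-box in 5.96% against 11.4%. In the same stratum GC box stood at 1.83% against 1.77%, AP-1 at 7.34% against 8.89% and the CTCF core at 12.4% against 7.78%. Members of this stratum still had the higher CpG ratio, with a median of 0.418 against 0.266.

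The other letters were rare in members. TEAD (GGAATGT), the POU octamer (ATGCAAAT), homeobox (CTAATTA), YY1 (AAGATGGCG), ROR and Nur receptors (AAAGGTCA), SOX (AACAATGG) and MEF2 were each found in 2 to 17 members, between 0.307% and 2.61%. REST (CAGCACC, then 2 bases, then GGACAG), the NFI palindrome (TTGGC, then 5 bases, then GCCAA) and ZNF143 (CTACAATTC) were found in none, which allows up to 0.46% by the same floor of 3 counts and up to 0.564% by the exact interval, and in at most 0.129% of other distal regions.

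Footprints were called in all 652 members in both libraries, against 73.5% of the other distal regions, as a description since they come from the same cuts. The median member held 4 footprints in replicate 1 and 5 in replicate 2, and they covered 28.9% and 32.1% of its bases, against 2 and 2 footprints and 7.66% and 10% in other distal regions. Of 2991 footprints of replicate 1 in members, 80.4% overlapped one of replicate 2, and of 3269 of replicate 2, 71.7% overlapped one of replicate 1. In the other distal regions these shares were 50.6% and 40.6%. The median footprint was 13.0 bp wide in each library, against 9.0 bp.

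Footprints gathered in the middle of the members. Bases within 25 bp of the midpoint lay under a footprint in 47.1% and 48.6% of members, and bases 90 to 110 bp away in 21.6% and 27.2%. Tall regions near start sites had a flatter profile, with 42.3% and 44.1% in the middle and 27.3% and 32.3% at 90 to 110 bp. In other distal regions the middle stood at 17.9% and 21.9% and the bases 90 to 110 bp away at 3.25% and 4.47%, a lower level throughout but a steeper drop, relative to the middle, than in the members. The midpoint comes from the same peaks as the footprints. Bases 90 to 110 bp away lie near or beyond the edge of many regions. Median widths were 260 bp in both tall classes and 234 bp in other distal regions, and the part of width in these profiles was not tested.

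**Figure D4:**
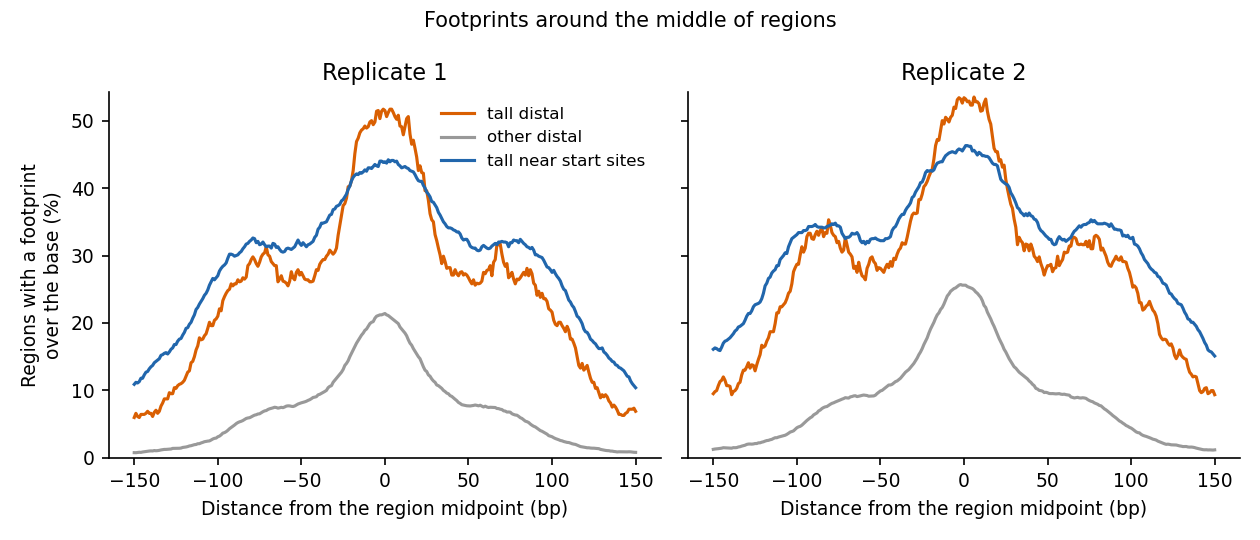
Percent of regions with a footprint over each base (y axis) by distance from the region's midpoint in bp (x axis), for replicate 1 (left) and replicate 2 (right). Within 25 bp of the midpoint, tall distal regions average 47.1% and 48.6%, above the 42.3% and 44.1% of tall regions near start sites.

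Matches differed in how often a footprint covered their middle base. Of 60 CTCF core matches inside members, 58 were covered in both libraries, as were 42 of 44 GC box, 25 of 29 CRE and 35 of 42 RFX matches. In the other distal regions the shares covered in both were 60.1%, 22.0%, 31.7% and 35.7%. AP-1 and NFY letters were covered less often, in 4 of 43 (9.3%) and 15 of 73 (20.5%) matches in members, though also above the 2.08% and 3.61% of other distal regions. The NeuroD E-box lay between, with 19 of 51 (37.3%) against 15.2%. Footprints covered a median of 28.9% and 32.1% of all bases of a member, more than in other distal regions. In single libraries AP-1 matches in members lay below that share (14% and 16.3%). NFY matches did not clearly exceed it (26% and 32.9%), and NeuroD E-box matches stood above it (52.9% and 49%). The part of this base share in the differences from other distal regions was not tested. Taller regions have more cuts, which moves with the number of footprints called, and the part of depth in these shares was not tested.

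Members were mostly narrow, though somewhat wider than the other distal regions. The median joined region was 260 bp wide, as in tall regions near start sites, and 234 bp in other distal regions, and 645 of the 652 were a single peak in each library. The median peak was 240 bp wide in each library, against 200 and 204 bp in other distal regions. The widest were a region near Trim7 that covered a proline tRNA gene (860 bp, 4.2 and 3.22), one across a coding exon of Clec11a (720 bp, 6.77 and 8.14) and one near the synuclein gene Sncb (720 bp, 3.89 and 3.7). These are widths of joined regions. The tallest peak of each library was 260 and 620 bp wide near Trim7, 700 and 700 bp at Clec11a and 260 and 700 bp near Sncb. The Trim7 region had 10 and 15 footprints and the Clec11a region 9 and 14, and the 480 bp region upstream of Fos had 11 and 12. Over all members the counts went up to 13 in replicate 1 and 15 in replicate 2. The narrowest lay near Atf7ip (100 bp, 4.72 and 4.92), in Zfp13 (120 bp, 6.09 and 5.05) and in Filip1l (120 bp), with 2 to 4 footprints each.

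Genes induced by neuronal activity had the highest share among 11 gene lists. Of 18 such genes, 10 had a member in their span or within 50 kb, against 1475 of 20807 autosomal protein-coding genes (7.09%), although their median span was 6.66 kb against 17.6 kb. Any distal shared region was found at 17 of the 18, against 74.3% of all protein-coding genes. The members there numbered 16, with heights from 3.59 to 8.37 and from 3.18 to 8.73. The lists were chosen with earlier results of these data known, and the count is given as a description.

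Fos, Fosb and Junb, which encode subunits of AP-1, had 2 members each. The taller ones lay 18270 bp upstream of Fos (8.37 and 8.73), 9950 bp upstream of Fosb (6.45 and 4.81) and 7123 bp upstream of Junb (5.41 and 5.22). The nearest coding start site to the Junb region was that of Hook2, at 4283 bp. Npas4, a bHLH-PAS factor of inhibitory synapse control, also had 2 members. The taller lay 11485 bp upstream of its GENCODE start (7.74 and 6.99) but 1359 bp from a RefSeq start of Npas4. Single members lay upstream of the nuclear receptor genes Nr4a1 (7689 bp, 6.37 and 6.32) and Nr4a3 (1533 bp, 6.2 and 5.5), of the zinc finger genes Egr3 (2043 bp, 4.3 and 3.91) and Egr1 (4243 bp, 3.59 and 3.18), and 14010 bp downstream of Btg2 (3.63 and 4.35). Per1, a clock gene, had one in an intron (7.62 and 7.25) and 2 within 50 kb at tRNA genes. In their middle 200 bases, none of the 16 held AP-1 or CTCF core letters, 1 held a CRE and 2 a CArG box. Bases outside that window were not searched for these counts. Over all members the shares were 6.29% for AP-1, 8.59% for the CTCF core and 4.45% for CRE. With 16 regions, counts this low cannot be told from those 3 shares. The CArG box, the site of serum response factor, was added after the values were seen. The CArG box was found in 7 of all members (1.07%), against 0.959% of the other distal regions. Arc, Bdnf, Dusp1, Fosl2, Homer1, Jun, Nptx2 and Rgs2 had no member.

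**Figure D5:**
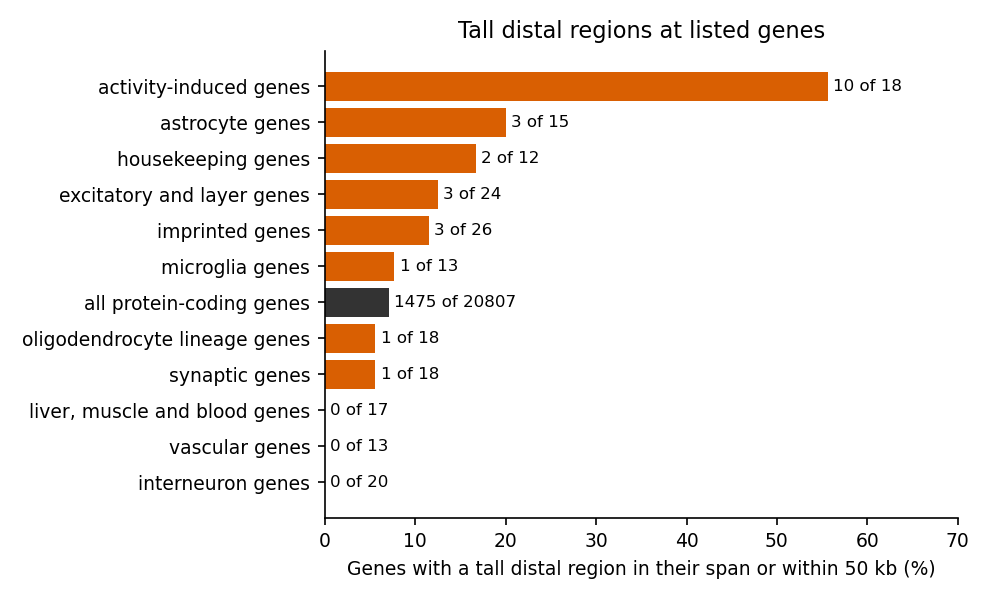
Percent of the autosomal genes of each list with a tall distal region in their span or within 50 kb (x axis), with counts beside the bars and all protein-coding genes in black. Activity-induced genes stand at 55.6% and all protein-coding genes at 7.09%.

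The other lists lay between 0 and 20%. Excitatory and layer genes had 3 of 24: Mef2c, an activity-dependent transcription factor (47981 bp downstream, 4.59 and 5.76), the vesicular glutamate transporter gene Slc17a7 (1449 bp upstream, 4.19 and 4.36) and Neurod2. Synaptic genes had 1 of 18, an intron region of Dlg4, which encodes the scaffold PSD-95 (8.12 and 9.03). Astrocyte genes had 3 of 15, in introns of the nuclear factor I genes Nfia (5.4 and 6.01, at a RefSeq start) and Nfib (3.95 and 3.63) and near Apoe. Oligodendrocyte genes had 1 of 18, near Mog (5.05 and 5.24), and microglia genes 1 of 13, in Cx3cr1 but nearer to a start of Xirp1 (7.01 and 5.78). None of 20 interneuron, 13 vascular or 17 liver, muscle and blood genes had one, while 95%, 84.6% and 88.2% of them had some distal region.

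Imprinted genes, of which 1 parental copy is silent, had 3 of 26: Peg3 had 2, the taller in an intron (7.77 and 7.14), and Peg10 and its neighbour Sgce shared one in an intron of Peg10 (4.62 and 4.91). Housekeeping genes had 2 of 12, including Rpl13a. The Rpl13a region was the one at Slc17a7, 33200 bp away, so a region can count for genes of more than 1 list.

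Few genes held several members. A member lay in the span of 247 protein-coding genes, 2 or more in 19 of these and 3 or more in 3. Diaph1, the gene of a formin that nucleates actin, held 4, from 3.31 to 9.58 and from 3.55 to 9.17, and the myosin gene Myo1d held 3, from 3.02 to 7.51 and from 3.3 to 6.95. Gm20388, annotated over 4430 kb, also held 4. Camta1, Ccnd3, Itpkb, Jarid2, Maml3 and Mnt were among those with 2.

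Most members stood alone: 525 had no other member within 20 kb. The other 127 formed 46 pairs and 11 runs of 3 or more. Kdm6b, a histone H3 lysine 27 demethylase gene, had a run of 4 on chromosome 11, from 4.66 to 5.36 and from 4.66 to 6.48. All 4 lay within 1 kb of a RefSeq start, at 0, 340 and 0 bp from starts of Kdm6b and 630 bp from one of Gm51903. The clock gene Nr1d1 and its neighbour Msl1 had another of 4, from 3.32 to 12.3 and from 4.23 to 13.5, of which the tallest lay in an intron of Nr1d1. A run of 3 lay beside Ptma, the prothymosin alpha gene (3.08 to 10.6 and 3.79 to 11.6). Chromosome 11 also had the most members per Mb (75 members, 0.614), and chromosome 14 the fewest (21, 0.168), where 3.47% and 1.58% of distal regions were tall.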

How the data were processed

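DNase-seq libraries of 1 group (2 replicates) were analysed from lists made by the authors per library in mm10. Peak heights are a deposited signal value on an unstated scale. The footprint list carries a constant 0.01, and the cut rate track a false discovery rate below 0.05, both p-value or q-value columns deposited by the authors. The aligner and the callers are not given in the sources used here. Read depth was not used.

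Peaks of the longer list of each library were joined at an overlap of 1 bp, and height was the highest in each library. Distance ran from the region's edge to the nearest start site of any GENCODE M21 gene. GC content and letters were read in the middle 200 bp from the GRCm38.p6 sequence, and 31-base words were counted over the assembly. Python 3.11.15 with numpy 2.4.6, pandas 2.3.3 and SciPy 1.17.1 was used, and joining, distances and matching were tested on simulated data. Shares carry exact binomial intervals, which cover counting error only. The groups compared are the other distal regions and tall regions near start sites, with no test.

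Named regions were the 10 with the highest mean rank of height, 3 on either side of the limit, the 3 farthest, widest, narrowest, with most footprints and with the largest and smallest height ratio, up to 4 genes per list and the genes with most members. Others were chosen after their values were seen: regions at tRNA genes, RefSeq starts and VISTA enhancers, the tallest CTCF match, runs of members and, beyond 4 genes, the activity-induced genes. One named region is not reported here. The members and lists were chosen with earlier results of these data known. Alternatives are given at the end.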

Additional observations from a re-analysis of the deposited data

How the results depend on the processing

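The count of 652 members became 1083 at a height minimum of 2.5 and 301 at 4. It lay between 811 and 850 when the peaks of 1 library alone were used, with none of the other required. It was 541 over 2 kb from start sites, 844 with protein-coding start sites only, and 652 with the shorter peak lists or with peaks joined at 50 bp. At 2 kb, 35.5% of regions lay inside a protein-coding gene, the median distance was 8945 bp and the CTCF core share 9.61%. With protein-coding start sites only, 34.1% lay inside a gene and the median distance was 11927.5 bp. A 100 bp window gave the CTCF core in 6.13%. Allowing 1 mismatch, chosen after seeing the data, gave 24.7%, so that share depends on the letters required. Leaving out regions of repeated sequence, also chosen after seeing the data, gave a median distance of 6686.5 bp. Leaving out 1 replicate gave shares inside a gene from 39.7% to 40.4%, median distances from 6963 to 7165.5 bp, a width of 240 bp, a footprint in 99.9% to 100%, CTCF core shares from 7.88% to 9.12% and a GC content from 56.0% to 57.0%. Of 55 alternative values, 39 moved by no more than 1 SD of the single-library values or, for the count, within 1.5-fold. No paired analysis was possible because there is 1 group. Read depth was not used here, so which regions miss the limit by sampling cannot be told.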
